A study of Gallus gallus with 48 samples.

Results

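The comparison asks which transcripts of the chick retina and pigment epithelium answered differently to a lens of negative and of positive power after 6 hours of wear. For each bird the log2 signal of the lens eye minus that of its own control eye was taken, and the 6 birds with a -15 diopter (D) lens were set against the 6 birds with a +15 D lens. These 12 birds gave 24 of the 48 arrays of the series, and the other 24 arrays came from 12 birds that wore the same lenses for 3 days. All birds were White Leghorn chicks, 1 week old when the lens was put on and under 2 weeks of age at collection, and had been housed with 12 hours of light a day since they were 1 day old.

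The 4 groups at 6 hours were the lens eyes and the control eyes of the -15 D birds and the lens eyes and the control eyes of the +15 D birds, with 6 arrays each. The control eye wore no lens and was the fellow eye of the same animal, so whatever a lens over 1 eye does to both eyes is not seen. No group wore a plain lens. Retina and retinal pigment epithelium (RPE) were extracted together, so a value cannot be assigned to either layer. Birds are numbered 1 to 6 within each lens sign, and a number names a bird and pairs nothing across the signs.

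A negative lens puts the image plane behind the photoreceptors, and the chick eye grows longer to meet it. A positive lens puts the image in front of them, and elongation slows while the choroid thickens. The retina reads the sign of the blur without the brain, and its signals pass through the RPE to the choroid and the sclera. Amacrine cells that hold glucagon, vasoactive intestinal peptide or dopamine, the transcription factor EGR1, and the bone morphogenetic proteins (BMPs) of the RPE have all been studied as carriers of that signal. BMPs are secreted ligands of the TGF-beta family that bind paired serine/threonine kinase receptors and act through SMAD proteins, and secreted antagonists such as noggin bind the ligand.

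The values were log2 signals per probe set, and 38382 probe sets were tested. Array medians of the 24 arrays lay between 6.39 and 6.50, and any 2 of the arrays correlated at 0.952 to 0.9975. Markers of the labelled tissue were present: over the 24 arrays GNAT2 of cones averaged 12.55, RPE65 of pigment epithelium 12.38, GAD1 of amacrine cells 12.63 and GLUL of Muller glia 13.73. The ganglion cell marker POU4F1 was not matched to a probe set. The dim signal level, taken as the 95th percentile of 541 probe sets for viral sequences, was 4.50, and a probe set below it is called below background. The number of arrays limits the precision: the 95% confidence interval of a difference between the lens signs had a median half-width of 0.25 log2.

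No transcript passed the test of the lens sign after correction for the number of probe sets. With the bird as a block, limma called 0 of 38382 probe sets (0% of those tested), and the lowest adjusted p was 0.985. At an unadjusted p under 0.05 there were 1362 (3.55%), fewer than the 1919.1 that uniform p-values would give. Of these, 559 (1.46%) had the higher response in the -15 D birds and 803 (2.09%) the lower. Every gene named below for the lens sign is therefore a description of these 12 birds: each had a limma adjusted p of 0.985 or above for the lens sign, and 95% intervals of the difference are given for several of them.

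BMP2, a BMP ligand whose transcript in chick RPE has been studied as a marker of defocus sign, showed the widest separation of mean responses among the 20 genes with the lowest p. Lens minus control in the -15 D birds was -0.99, -0.96, -0.74, -1.90, -1.32 and 0.77. In the +15 D birds it was 0.28, -0.43, 1.25, 0.78, 0.40 and 0.82. The lens eye was lower in 5 of 6 birds under the negative lens and higher in 5 of 6 under the positive lens, and the ranges overlap through -15 D bird 6 and +15 D bird 2.

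The mean response of BMP2 was -0.86 ± 0.89 log2 in -15 D birds and 0.52 ± 0.58 in +15 D birds (SD, n = 6 each). The difference was -1.37 (95% interval -2.12 to -0.63), which is 2.59-fold, and it ranked 12th of all probe sets by p. Over 23 alternatives the difference ran from -1.70 to -1.17. The limma adjusted p was lowest at 0.317, without -15 D bird 6, where the difference was -1.70. Fewer BMP2-expressing cells in a sample and less BMP2 RNA per cell cannot be told apart in such extracts, and the same holds for each transcript below.

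The separation of BMP2 lay in the eyes that wore the lens. Its signal in the lens eyes was 8.42, 8.55, 9.14, 8.31, 8.29 and 9.48 in -15 D birds, and 10.73, 9.09, 10.01, 10.70, 9.84 and 9.76 in +15 D birds. In the control eyes it was 9.41, 9.51, 9.88, 10.21, 9.61 and 8.71 in -15 D birds, and 10.45, 9.51, 8.76, 9.91, 9.44 and 8.93 in +15 D birds. The control eyes covered nearly the same range in both sets, while in the lens eyes only -15 D birds 3 and 6 lay above the lowest +15 D bird. Without pairing, limma gave a difference of -1.32 between the lens eyes (adjusted p = 0.0847) and 0.05 between the control eyes (adjusted p = 0.957).

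A second BMP2 probe set, which was dimmer, gave the same picture. Its responses were -1.31, -1.38, -1.19, -2.01, -1.48 and 1.34 in -15 D birds, and 0.31, 0.13, 1.36, 0.69, 0.60 and 0.89 in +15 D birds. All 6 birds with a positive lens were above 0, and -15 D bird 6 was again the exception among those with a negative lens. The difference was -1.67. The remaining BMP2 probe set averaged 2.91, below background, and is not read.

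The RPE marker list moved in some of the same eyes, so its values are given beside BMP2. The mean lens minus control over 15 RPE and pigment genes was 0.41, 0.09, 1.45, 0.14, -0.81 and -0.01 in -15 D birds, against -0.18, -0.39, 0.08, 0.12, -0.31 and 0.26 in +15 D birds. Of the 5 birds with a lower BMP2 in the -15 D lens eye, 4 had an RPE mean above 0 and bird 5 had one below. In the +15 D set, birds 3, 4 and 6 had an RPE mean above 0 and also the highest BMP2 responses (1.25, 0.78 and 0.82). Whether BMP2 follows the RPE list was not tested. Without -15 D birds 3 and 5, whose 2 eyes differed most over the whole array, the BMP2 difference was -1.29.

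**Figure D1:**
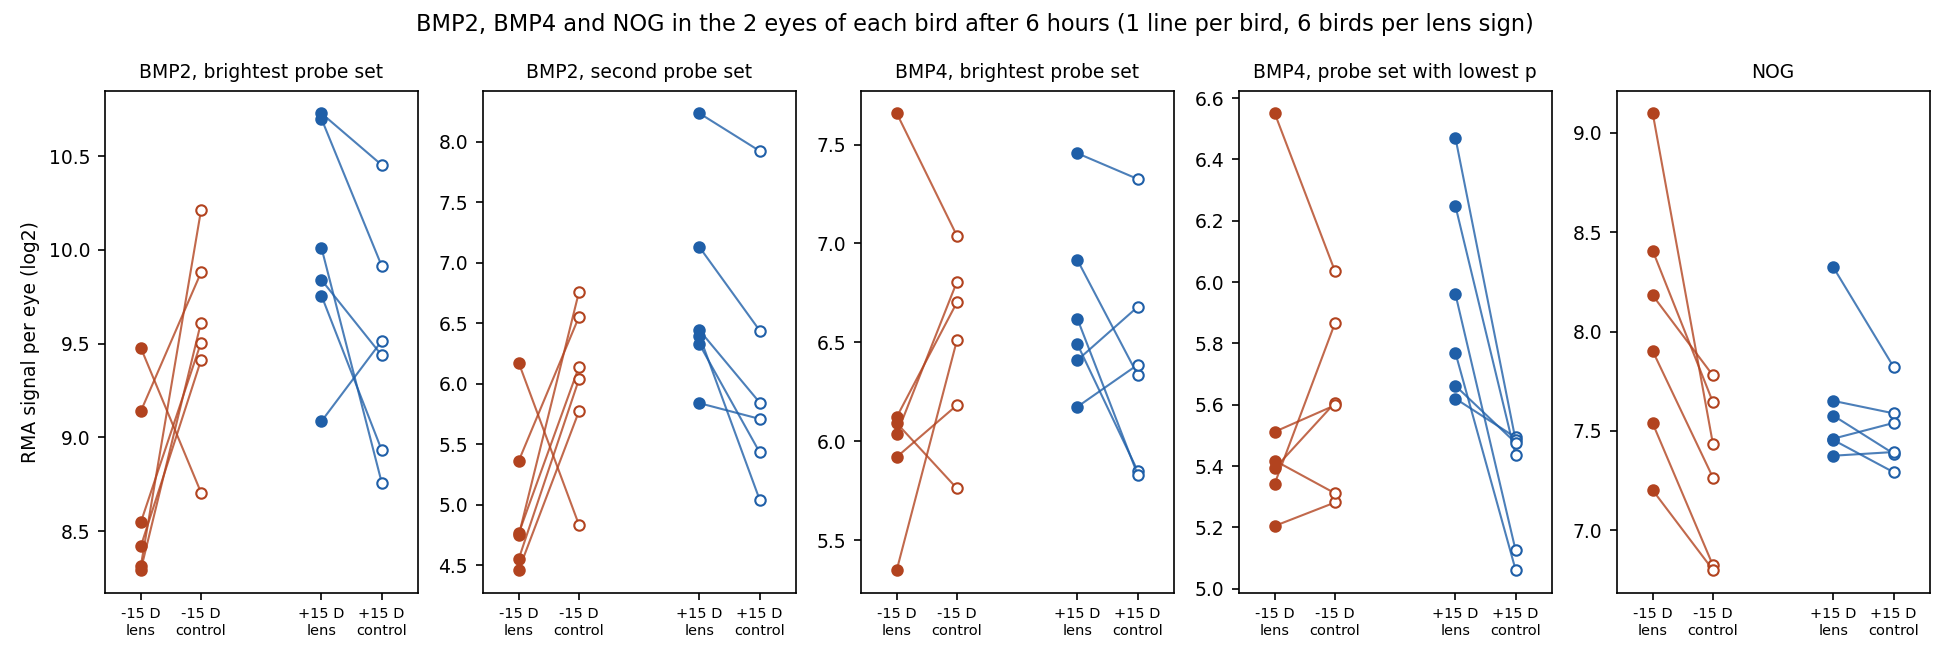
Signal (log2, vertical axis, scaled separately in each panel) of BMP2, BMP4 and NOG probe sets in the lens eye (filled) and the control eye (open) of each bird after 6 hours, with a line joining the eyes of a bird; -15 D birds are red and left, +15 D birds blue and right. The BMP2 lines run down to the lens eye in 5 of 6 -15 D birds and up to it in 5 of 6 +15 D birds, and the NOG lens eye is the higher one in 6 of 6 -15 D birds.

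BMP4, the close relative of BMP2, pointed the same way with smaller and less even values. The BMP4 probe set with the lowest p had responses of -0.08, -0.21, 0.51, -0.52, -0.09 and 0.11 in -15 D birds, and 0.81, 0.13, 0.71, 0.99, 0.19 and 0.84 in +15 D birds. Every positive-lens bird was above 0, while the negative-lens birds lay on both sides, and the ranges overlap. The difference was -0.66 (interval -1.04 to -0.28).

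The brightest BMP4 probe set did not separate the signs as well. Its mean response was -0.30 ± 0.68 in -15 D birds and 0.28 ± 0.46 in +15 D birds, and the interval of the difference (-1.18 to 0.02) reached past 0. A further BMP4 probe set had responses from -0.24 to 0.18 in -15 D birds and from -0.06 to 0.30 in +15 D birds. BMP7, another ligand of the family, had responses of 0.01 ± 0.60 and 0.05 ± 0.52 in -15 D and +15 D birds, a difference of -0.04 with an interval from -0.69 to 0.60.

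NOG, which encodes the BMP antagonist noggin, had its larger response in the -15 D birds. Lens minus control was 0.71, 0.40, 1.67, 0.76, 0.64 and 0.40 there, against 0.06, 0.16, 0.19, -0.08, -0.02 and 0.50 in the +15 D birds. All 6 negative-lens birds were at 0.40 or above, a level that only +15 D bird 6 reached. The difference was 0.63 (interval 0.24 to 1.02).

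NOG without -15 D birds 3 and 5 differed by 0.43. The mean of its responses over both signs was a rise of 0.45 that passed the threshold (limma adjusted p = 0.0399), but NOG was not among the 5 probe sets called for that mean without birds 3 and 5. Over the 29 BMP signalling genes measured, 15 lay above 0 and 14 below, with a median difference of 0.01, against a median of 0.01 over all 13009 genes. BMP2 and NOG were the only 2 members with an unadjusted p under 0.05, a share to be read against 2.58% of all genes by their brightest probe set. The receptors, SMADs and other antagonists of the list had no member under 0.05.

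The other genes among the 20 with the lowest p came from many functions, and their roles are those known from mammals. FKBP14, a collagen-folding isomerase of the endoplasmic reticulum, had responses of 0.18, -0.40, 0.30, 0.35, 0.02 and 0.37 in -15 D birds, and -0.74, -0.04, -0.25, -0.57, -0.50 and -0.60 in +15 D birds. All 6 positive-lens birds were below 0, and -15 D bird 2 was the one negative-lens bird among them. The difference was 0.59 (interval 0.29 to 0.88).

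SPATA17, a calmodulin-binding protein, was one of 2 of the 20 genes whose birds did not overlap. It had responses of 0.08, 0.26, 0.05, -0.05, 0.03 and 0.29 in -15 D birds, and -0.30, -0.26, -0.12, -0.45, -0.26 and -0.33 in +15 D birds, a difference of 0.39 (interval 0.19 to 0.59). For SPATA17 the control eyes differed more between the sets (-0.29, limma adjusted p = 0.167) than the lens eyes did (0.10, adjusted p = 0.616).

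CYBRD1, a ferric reductase, was the other gene without overlap. Its responses were -0.01, -0.06, 1.39, 0.28, 0.12 and 0.03 in -15 D birds, and -0.97, -0.17, -0.27, -0.17, -0.30 and -0.21 in +15 D birds. The difference was 0.64 (interval 0.26 to 1.02). Most birds lay within 0.30 of 0, and -15 D bird 3 and +15 D bird 1 stood far out. Over the whole array the birds did not overlap at 38 probe sets (0.099%), 18 with the -15 D birds higher (0.0469%) and 20 with them lower (0.0521%).

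Among the genes with the lower response in -15 D birds, those of the nervous system and of intracellular transport were ADCY1, SIPA1L2 and WASHC4. ADCY1, a calcium-activated adenylyl cyclase of neurons, differed by -0.64 at a probe set that averaged 4.33, below background. At some brighter ADCY1 probe sets it differed by -0.28 to -0.34, but not every ADCY1 probe set separated the signs. Another ran from -0.57 to 0.11 in -15 D birds and from -0.64 to 0.01 in +15 D birds. A further ADCY1 probe set ran from -0.18 to 0.04 in -15 D birds and from -0.54 to 0.09 in +15 D birds. SIPA1L2, which switches off the small GTPase Rap, differed by -0.41. WASHC4, a subunit of the complex that builds actin on endosomes, differed by -0.51.

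Genes of the centrosome, cilia and nucleus had similar sizes. CEP250, which holds the centrioles together, had a response of -0.54 ± 0.20 in -15 D birds, with 6 of 6 below 0, and 0.13 ± 0.40 in +15 D birds. The midasin gene MDN1, an ATPase of ribosome assembly, differed by -0.63, the splicing protein SON by -0.33, the axonemal dynein DNAH9 by -0.33 and TTC28, a protein of cell division, by -0.32. MDN1 had 8 probe sets in all, and each lay below 0.

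Secretory and regulatory genes made up the rest. SECISBP2, which helps selenocysteine to be built into proteins, had a response of -0.37 ± 0.14 in -15 D birds and 0.05 ± 0.23 in +15 D birds. TMEM131, a helper of collagen secretion, differed by -0.35, the mannosyltransferase TMTC1 by -0.56, the F-box protein FBXL17 by -0.36 and the unnamed locus LOC427025 by -0.52. The thyroid hormone receptor THRA (0.38) and the ubiquitin ligase PELI2 (0.35) had the higher response in -15 D birds.

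Of the 20 genes, 15 had the lower and 5 the higher response in -15 D birds, and in 19 the mean responses of the sets had opposite signs. These shares follow in part from choosing by p. In 16 of the 20 the lens eyes differed more between the sets than the control eyes. A total of 14 had a probe set averaging below 6 log2, and for 12 of the genes a brighter probe set was measured. Of these 12 brighter probe sets 9 had the same sign, 2 had p under 0.05, and the median size was 0.14 against 0.47 for the named ones.

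**Figure D2:**
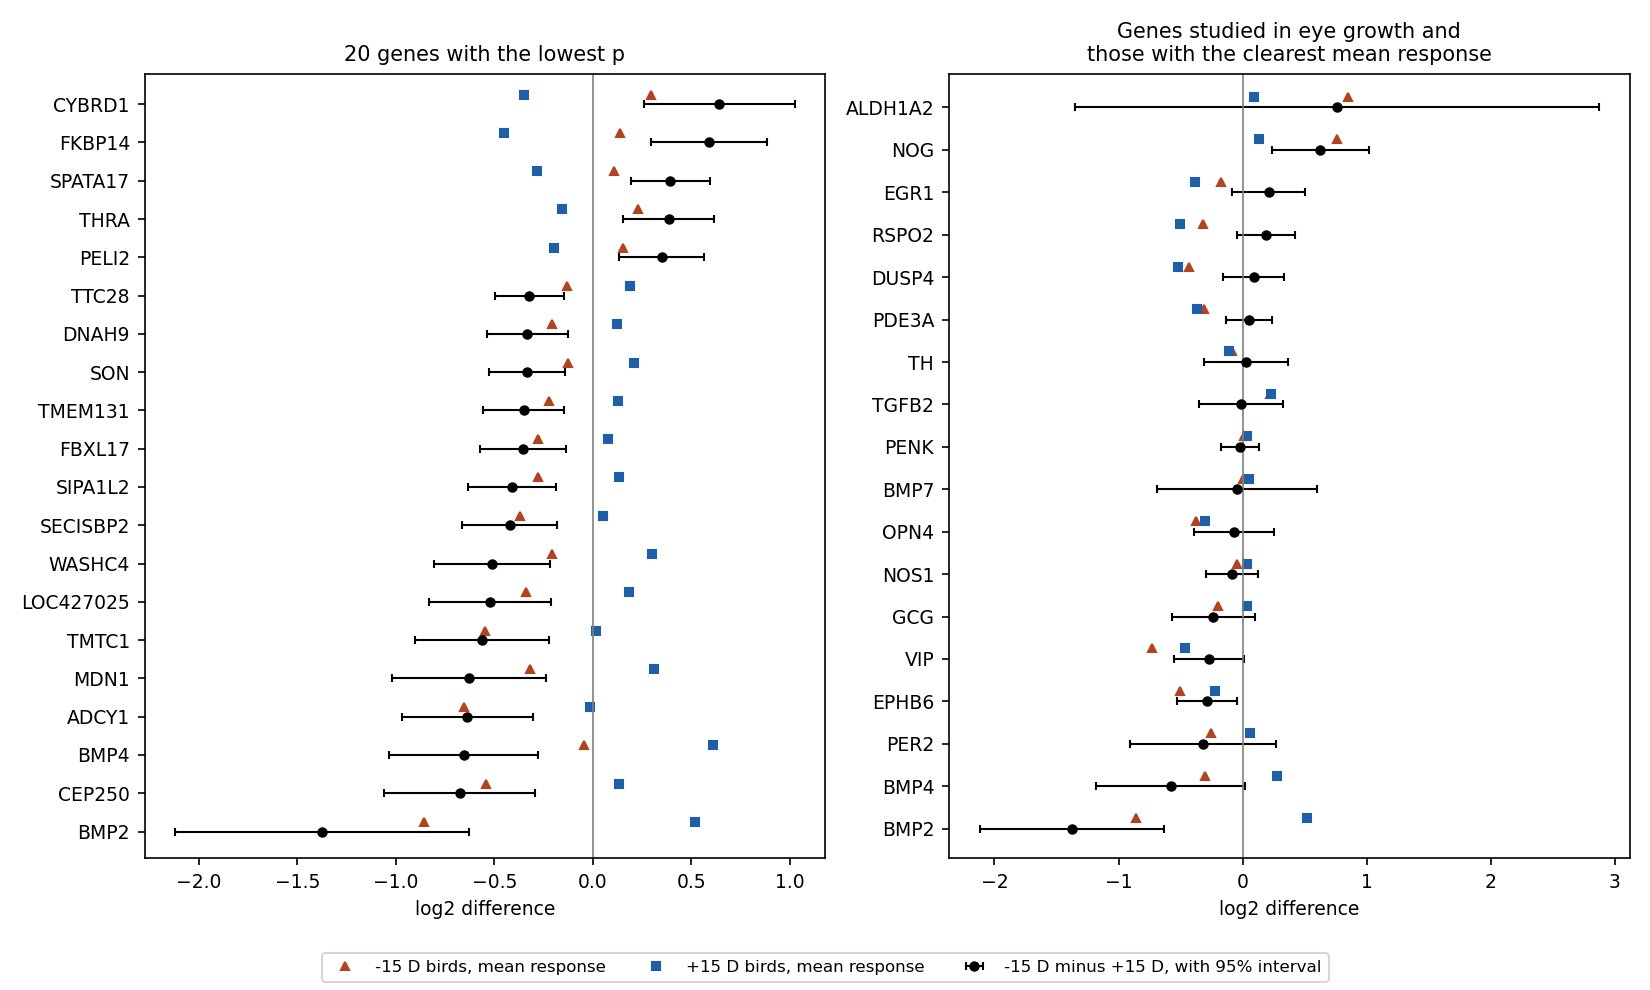
Difference between the responses of -15 D and +15 D birds after 6 hours (black points, log2, horizontal axis) with its 95% interval, and the mean response of each set (red triangles for -15 D, blue squares for +15 D), for the 20 genes with the lowest p (left) and for genes studied in eye growth or with the clearest mean response (right). BMP2 lies farthest from 0 on the left at -1.37; on the right only the intervals of BMP2, NOG and EPHB6 leave out 0.

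PROK2, which encodes the secreted peptide prokineticin 2, was looked at after its values were seen because 2 of its probe sets had p under 0.01. The brighter one had responses of 0.08, -0.01, -0.03, 0.01, 0.38 and -0.00 in -15 D birds, and -0.17, -0.10, -0.18, -0.33, -0.36 and -0.10 in +15 D birds, a difference of 0.28. Its birds did not overlap, and those of the dimmer one did. BMP2 and MDN1 were the only other genes with 2 probe sets under 0.01.

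At 4 probe sets (0.0104%) every negative-lens bird lay on one side of 0 and every positive-lens bird on the other. A gene name was given for 2 of them. TMEM14C, a mitochondrial protein needed for heme synthesis in mammals, had responses of 0.28, 0.04, 0.89, 0.08, 0.22 and 0.13 in -15 D birds, and -0.73, -0.04, -0.01, -0.03, -0.01 and -0.17 in +15 D birds. Most of these values are within 0.30 of 0. LOC420903 ran between 0.07 and 0.31 in -15 D birds and between -0.23 and -0.01 in +15 D birds. The 2 unnamed probe sets were below background.

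None of the 16 genes studied in eye growth passed the test of the lens sign. BMP2 and NOG were the 2 with an unadjusted p under 0.05, beside 2.58% of all genes by their brightest probe set. The 16 genes were chosen with earlier results of these data known, so this count is a description. EGR1, the transcription factor, had a response of -0.17 ± 0.33 in -15 D birds and -0.38 ± 0.31 in +15 D birds (difference 0.21, interval -0.08 to 0.50). Glucagon (GCG) had -0.20 ± 0.20 and 0.04 ± 0.27 in -15 D and +15 D birds (difference -0.24, interval -0.57 to 0.10). The intervals leave room for differences of up to 0.50 in EGR1 and 0.57 in GCG.

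For the other members of this group the differences were smaller or the intervals wider. The enkephalin precursor PENK differed by -0.02 (interval -0.17 to 0.13), the growth factor TGFB2 by -0.01 (-0.35 to 0.33), the dopamine-synthesizing enzyme TH by 0.03 (-0.31 to 0.37) and the nitric oxide synthase NOS1 by -0.09 (-0.30 to 0.12). The clock gene PER2 differed by -0.32 (-0.90 to 0.27). ALDH1A2, the retinoic acid enzyme, ran from -2.68 to 4.84 in -15 D birds and from -2.95 to 1.63 in +15 D birds. Its interval (-1.35 to 2.87) is therefore too wide to read. These extremes lay in -15 D birds 3 and 5 and +15 D birds 2 and 3. The mean of 13 choroid and sclera genes was 3.95, -2.02, -2.21 and 1.45 there, also the extremes of each set. Whether ALDH1A2 follows that tissue was not tested.

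The mean response over both lens signs, unlike their difference, passed the threshold at some probe sets. There were 181 (0.472%), of which 5 rose (0.013%) and 176 fell (0.459%), with 5412 at unadjusted p under 0.05 (14.1%). All 181 had the same sign in both sets of birds, against 60.2% of all probe sets, a share that the choice by the mean favours. The -15 D birds alone gave 15 calls (0.0391%, with 10.1% at unadjusted p under 0.05) and the +15 D birds alone 3 (0.00782%, with 7.51%). Of 12 birds, 11 moved the count of 181 by over 1.5 times when left out singly (20 to 310 calls), the exception being +15 D bird 3 (143), and without the bird as a block it was 1. The actin 3'/5' signal ratio, a sign of RNA integrity, was lower in the lens eye in 6 of 6 -15 D birds and 3 of 6 +15 D birds, and with this ratio as a covariate 5 probe sets were called, at DUSP4, VIP, RSPO2 and PDE3A.

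VIP, an amacrine cell neuropeptide, had the lowest p for the mean response. Its responses were -0.78, -0.97, -1.08, -0.88, -0.37 and -0.31 in -15 D birds, and -0.73, -0.32, -0.29, -0.31, -0.61 and -0.51 in +15 D birds. All 12 birds were below 0 and the ranges overlap. VIP fell by 0.60 over both signs (limma adjusted p = 0.000295), and the difference between the signs was -0.27 (interval -0.55 to 0.01).

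DUSP4, a phosphatase that ends MAP kinase signalling, fell by 0.48 over both signs (limma adjusted p = 0.000812). Its responses were -0.39, -0.61, -0.75, -0.61, 0.06 and -0.30 in -15 D birds, and -0.60, -0.51, -0.54, -0.45, -0.59 and -0.45 in +15 D birds. The spread was wider under the negative lens, and the difference between the signs was 0.09 (interval -0.16 to 0.34). A second DUSP4 probe set that passed for the mean response had -0.32 in -15 D birds and -0.57 in +15 D birds. The difference there was 0.25 (interval -0.02 to 0.52). A further DUSP4 probe set was not called for the mean response. It ran from -0.27 to 0.12 in -15 D birds and from -0.43 to 0.17 in +15 D birds.

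PDE3A, which breaks down cyclic nucleotides, fell by 0.34 over both signs (limma adjusted p = 0.00148), with responses of -0.31 ± 0.06 in -15 D birds and -0.36 ± 0.16 in +15 D birds. A second PDE3A probe set that passed for the mean response (adjusted p = 0.0211) had -0.51 in -15 D birds and -0.18 in +15 D birds, and the interval of its difference of -0.33 ran from -0.58 to -0.08. Whether the PDE3A probe sets differ from each other was not tested. RSPO2, a secreted enhancer of WNT signalling, fell by 0.41 (adjusted p = 0.00176), with -0.31 ± 0.23 and -0.50 ± 0.21 in -15 D and +15 D birds. RSPO2 and the first PDE3A probe set were below 0 in 12 of 12 birds. EPHB6, an ephrin receptor, was called at a probe set of 4.66 log2, close to background and not the brightest of the gene. It fell there by 0.36 (adjusted p = 0.0125), with -0.50 in -15 D birds against -0.22 in +15 D birds. The interval of the difference was -0.52 to -0.04. Another EPHB6 probe set ran from -0.38 to -0.01 in -15 D birds and from -0.33 to 0.36 in +15 D birds.

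OPN4, the melanopsin light receptor of inner retinal neurons, fell by 0.34 over both signs (limma adjusted p = 0.0498), with -0.38 ± 0.28 in -15 D birds and -0.30 ± 0.35 in +15 D birds. The difference between the signs was -0.07 (interval -0.40 to 0.25). Like NOG and EPHB6, it was not called without -15 D birds 3 and 5, nor with the actin ratio as a covariate.

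**Figure D3:**
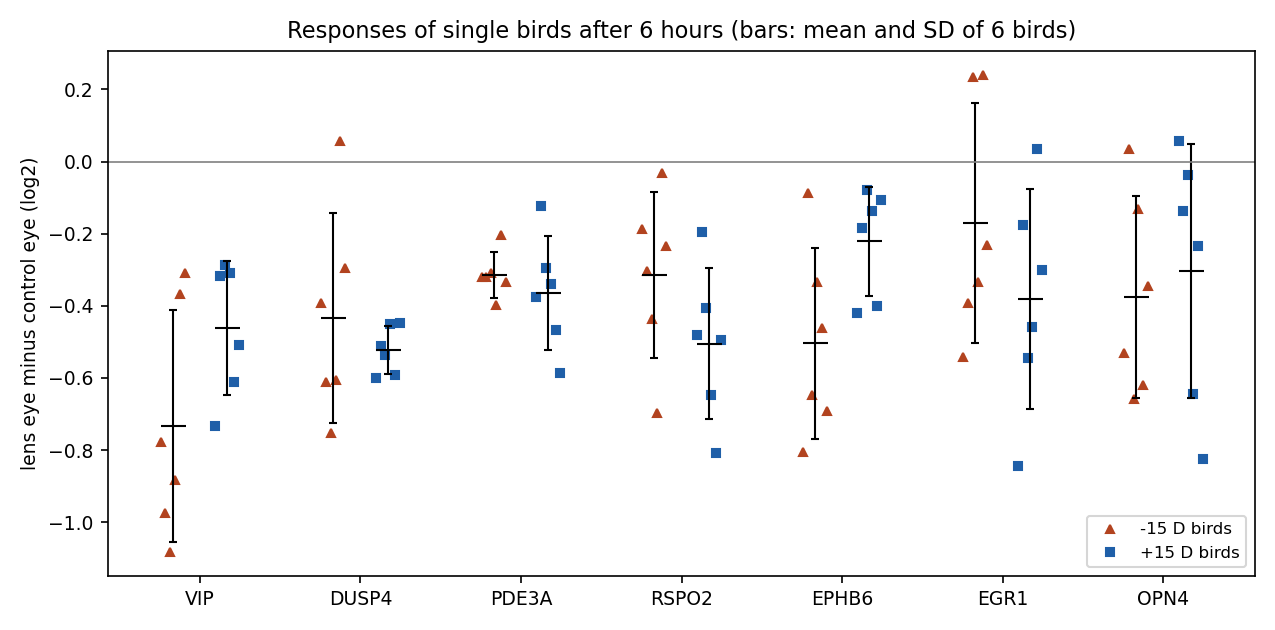
Lens eye minus control eye (log2, vertical axis) of single birds after 6 hours for 7 genes, with -15 D birds as red triangles on the left and +15 D birds as blue squares on the right of each pair; bars give the mean and SD of 6 birds. VIP, the first PDE3A probe set, RSPO2 and the called EPHB6 probe set are below 0 in 12 of 12 birds, and the sets overlap at each gene.

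Among the 181 probe sets called for the mean response, named the shared set here, the falls were larger in the -15 D birds. The set was chosen in these same birds, and a large response under 1 lens sign can carry a probe set past the threshold. The lean is therefore a description of the chosen set. The median response was -0.37 in -15 D birds and -0.24 in +15 D birds, and 145 of the 176 falls were larger in the -15 D birds, while 53.4% of all probe sets had a difference below 0. The tests of the mean response and of the lens sign use the same spread estimate, and its part in the next share was not tested. At unadjusted p under 0.05 for the lens sign there were 28 (15.5%, against 3.55% of all probe sets), 27 of them below 0. Among them were GRM5, a metabotropic glutamate receptor (-0.51 in -15 D birds against -0.13 in +15 D birds), SNAP25, a protein of vesicle fusion (-0.74 in -15 D birds against -0.19 in +15 D birds), and RAB3GAP2, a regulator of the vesicle GTPase Rab3 (-0.36 in -15 D birds against -0.09 in +15 D birds), named after their values were seen.

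These differences were not even over probe sets or birds. SNAP25 had 5 brighter probe sets, at 12.08 to 13.84 log2, whose differences lay between -0.16 and 0.01. The GRM5 probe set was dim and averaged 4.97 log2, against a background level of 4.50. The median over the shared set was -0.33, -0.26, -0.51, -0.29, -0.49 and -0.23 in -15 D birds, and -0.30, -0.12, -0.13, -0.15, -0.06 and -0.62 in +15 D birds. The deepest value was that of +15 D bird 6, and the sets overlap. Without -15 D birds 3 and 5 the median of the -15 D birds was -0.30 and 114 of the 176 falls were larger there, and limma then called 5 probe sets for the mean response, at DUSP4, VIP, RSPO2 and PDE3A.

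**Figure D4:**
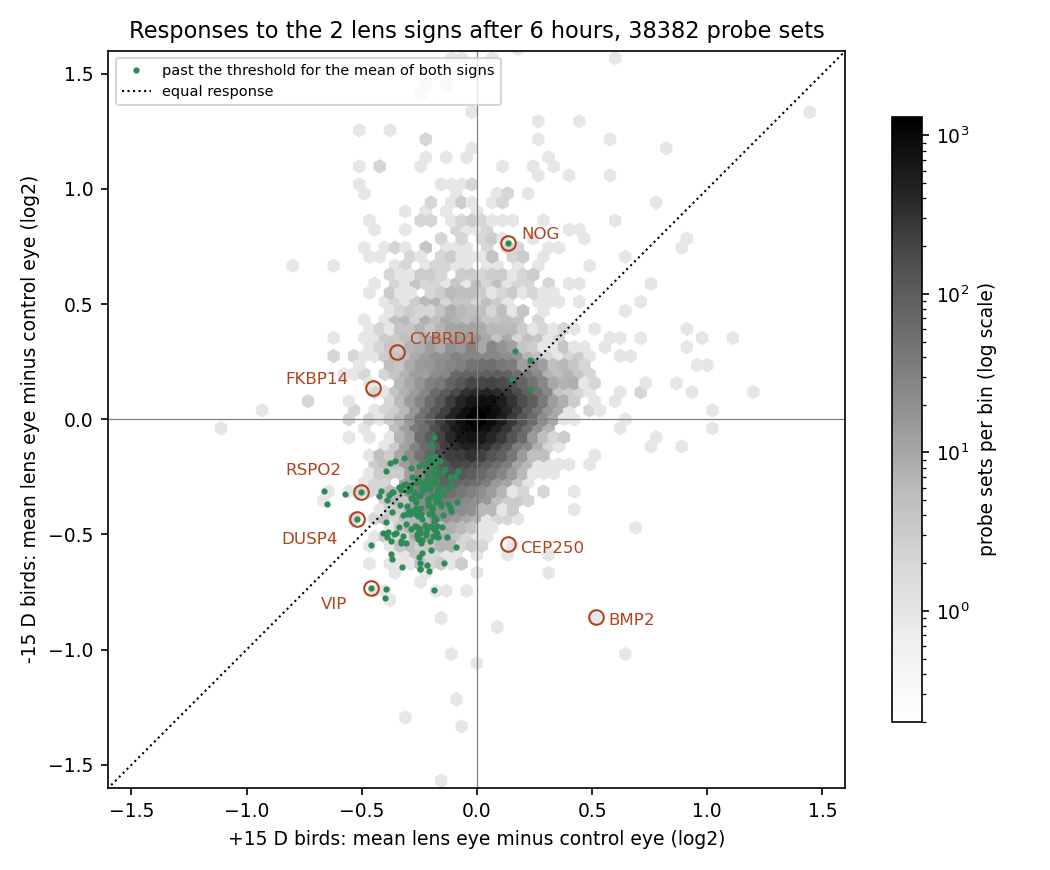
Mean lens minus control response of -15 D birds (vertical axis, log2) against that of +15 D birds (horizontal axis, log2) for 38382 probe sets, with the number of probe sets per bin in grey on a log scale; 19 lie outside the axes. Green points are the 181 probe sets past the threshold for the mean of both signs, 176 of them in the lower left, and the BMP2 probe set ringed in the lower right lies at -0.86 on the vertical and 0.52 on the horizontal axis.

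Gene lists were described by counts, each gene by its brightest probe set. In 25 lists with 453 measured genes limma called 0 members for the lens sign. Over all 13009 genes 336 had an unadjusted p under 0.05 (2.58%), 192 above 0 (1.48%) and 144 below (1.11%), and the median difference was 0.01 with 47.7% of genes below 0.

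Lists of retinal signalling leaned to one side by small amounts. Of 26 clock and melatonin genes 22 had the lower response in -15 D birds (median -0.07), and the melatonin receptor MTNR1B was the member with the lowest p (-0.29). Of 12 amacrine peptides 11 lay below 0 (median -0.10). Without -15 D birds 3 and 5 these counts were 17 of 26 and 9 of 12, against 49.4% of all genes.

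Among 23 genes of synaptic vesicle release 18 lay below 0 (median -0.05), led by UNC13A, which primes vesicles (-0.41), and the active zone protein PCLO (-0.34). Among 21 markers of retinal neurons 17 lay below 0 (median -0.06). Without -15 D birds 3 and 5 the first count was 13 of 23 and the second again 17 of 21. The photoreceptor guanylate cyclase GUCY2D (-0.43) was the member of the rod phototransduction list with the lowest p, in a list with 8 of 14 below 0.

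Single members of other lists, picked by their p, had the higher response in -15 D birds. Of 14 MAP kinase feedback genes, 6 lay above 0 and 8 below. The counts were 7 and 7 for insulin and IGF and 21 and 10 for extracellular matrix. WNT signalling, FGF and other growth factors, and ion and water transport each had 1 member at unadjusted p under 0.05 with the lower response. DUSP7, a MAP kinase phosphatase, had responses of 0.18, 0.14, 1.53, 0.23, 0.00 and 0.06 in -15 D birds, and -0.89, -0.39, -0.12, -0.10, -0.58 and 0.10 in +15 D birds. The difference was 0.69 (interval 0.19 to 1.18), and -15 D bird 3 stood far above the others. The insulin-like growth factor IGF2 differed by 0.39 and the matrix protein SPP1 by 0.49.

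Of 19 immediate early genes, which neurons induce with activity, 11 lay above 0 and 8 below (median 0.05). The counts were 20 of 33 above 0 for WNT signalling (median 0.06), 10 of 16 for TGF-beta signalling (0.06), 11 of 16 for retinoic acid (0.12) and 8 of 12 for dopamine (0.02). Cone phototransduction had 10 of 12 below 0 (-0.05), nitric oxide and acetylcholine 16 of 20 (-0.08) and ion and water transport 12 of 16 (-0.07). For retinoic acid the count without -15 D birds 3 and 5 was 13 of 16 above 0, and for cone phototransduction it turned to 9 of 12 above 0. Without these birds 18 of 33 WNT, 8 of 16 TGF-beta and 7 of 12 dopamine genes lay above 0. Below 0 were 13 of 20 genes of nitric oxide and acetylcholine and 10 of 16 of ion and water transport.

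Genes of tissues next to the retina had wide differences between the eyes of single birds. All 13 choroid and sclera genes had the higher response in -15 D birds (median 0.80), as had 15 of 15 RPE and pigment genes (median 0.29) and 13 of 14 blood and immune genes (median 0.30). Of 19 lens and anterior segment genes 17 had the lower response (median -0.88). The vessels and muscle list had 10 of 17 genes above 0 (median 0.04). None of these members passed the test. Without -15 D birds 3 and 5 the lens and anterior segment list had 7 of 19 below 0 and the choroid list still 13 of 13 above. RPE and pigment then had 13 of 15 above 0, blood and immune 12 of 14, and vessels and muscle 8 of 17. This check left out birds of the -15 D set only. The eyes of +15 D bird 1 differed over the whole array nearly as much as those of -15 D bird 5 (SD 0.38 against 0.40).

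The choroid and sclera mean was 1.49, -0.06, 3.95, 2.20, -2.02 and 0.12 in -15 D birds, and -0.76, -2.21, 1.45, 1.06, 0.20 and 0.05 in +15 D birds. The lens and anterior segment mean was -1.92 in -15 D bird 3 and -4.33 in bird 5, and lay between -0.75 and 0.12 in the other 10 birds. The summed signal of this list, not on the log2 scale, was 3789 to 6678 in the -15 D lens eyes. In the -15 D control eyes it was 4015 to 126564, so the highest signal lay in an eye without a lens. CRYAA of the lens and LUM of the sclera averaged below background, yet reached 12.41 and 7.93 in single eyes. Beyond leaving out birds 3 and 5, the part of these tissues in the sign differences was not tested.

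**Figure D5:**
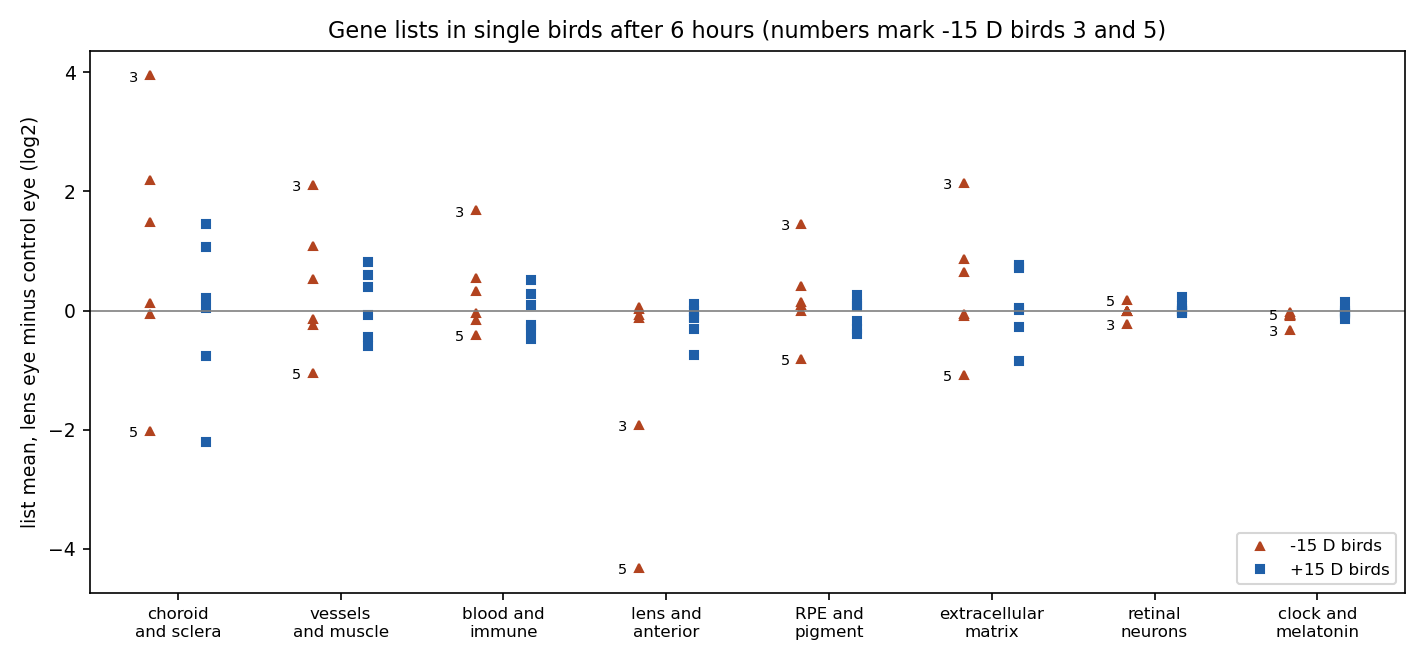
Mean lens minus control (log2, vertical axis) of the genes of 8 lists in single birds after 6 hours, -15 D birds as red triangles on the left and +15 D birds as blue squares on the right; 3 and 5 mark the -15 D birds whose eyes differed most. The choroid and sclera list runs from -2.02 to 3.95 in -15 D birds and from -2.21 to 1.45 in +15 D birds, while retinal neuron and clock lists stay near 0.

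Signs of RNA integrity were compared by the same within-bird difference. The actin 3'/5' signal ratio differed between lens and control eye by -0.16 ± 0.20 in -15 D birds and -0.19 ± 0.32 in +15 D birds (SD, n = 6 each, two-sided exact permutation test over all splits of the 12 birds, p = 0.857, adjusted over 3 ratios 0.857). For GAPDH the means were 0.02 and -0.06 (exact p = 0.379, adjusted 0.815), and for the elongation factor EF1A -0.05 and -0.22 (exact p = 0.543, adjusted 0.815).

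The lens eyes and the control eyes were also compared on their own. Without pairing, limma called 0 probe sets between the lens eyes of -15 D and +15 D birds, with 5979 at unadjusted p under 0.05 (15.6%), and 0 between their control eyes, with 5030 (13.1%). The control eyes wore no lens, and their count at unadjusted p under 0.05 was close to that of the lens eyes.

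The birds of 3 days allow the same contrast in other animals. There limma called 0 probe sets for the lens sign, with 3556 at unadjusted p under 0.05 (9.26%), and 0 for the change of the sign effect between 6 hours and 3 days, with 1494 (3.89%). Of the 1362 probe sets at p under 0.05 at 6 hours, 886 (65.1%) had the same sign at 3 days, against 57.1% of all probe sets. Of the 1362, 114 (8.37%) were also under 0.05 in that direction, beside 9.26% of all probe sets in either direction. The share of all probe sets in the matching direction was not counted, so the 114 are not read as agreement. Across all probe sets the sign effects of the times correlated at 0.20, a value over features that are not independent.

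BMP2 kept its direction at 3 days, with a mean response of -1.15 ± 0.55 in -15 D birds and -0.02 ± 0.61 in +15 D birds. The difference was -1.13 (interval -1.87 to -0.39, limma adjusted p = 0.411), and the lens eye was lower in 6 of 6 -15 D birds. The change between the times was -0.25 (limma adjusted p = 0.999). NOG had 0.47 and 0.37 in -15 D and +15 D birds at 3 days, a difference of 0.10.

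Of the 20 genes with the lowest p at 6 hours, 12 had the same sign at 3 days, a share near the 57.1% of all probe sets. BMP2, TMEM131 (-0.41) and LOC427025 (-0.32) were also under an unadjusted p of 0.05 in that direction, and TTC28 in the opposite one (0.24). SPATA17 differed by 0.06 at 3 days, FKBP14 by 0.14 and CYBRD1 by 0.18. The BMP4 probe set differed by -0.20.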

How the data were processed

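Total RNA (100 ng) of retina with RPE was labelled as biotinylated cDNA and hybridised to the Affymetrix Chicken array, per the labels' protocols. The authors deposited log2 values for each probe set, made with RMA and Partek per the submitters' processing notes. Software versions, settings and a genome build: not given in the sources used here. Because RMA gives all arrays one distribution, a shift of most genes would not be seen, and differences between dim signals are compressed.

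The table held 38535 probe sets. Tests used 38382 of them, with no minimum signal, after 153 Affymetrix controls and reporters had been removed. In the platform annotation 27168 had 1 gene symbol, 177 several and 11037 none, and 26853 of the first matched RefSeq. Lists took the brightest probe set of each of 13009 genes.

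The fit was limma 3.58.1 (lmFit and eBayes, R 4.3.3). The bird, whose number in the titles ties its eyes, was a block over all 48 arrays, so 24 within-bird differences left 20 residual degrees of freedom and 1 spread served the 4 conditions. To check the pairing, each eye's deviation from its group mean was correlated with that of the fellow eye. The correlation was above 0.1 in 10 of the 12 birds (median 0.421, from -0.234 to 0.852). P-values were two-sided, with Benjamini-Hochberg adjustment over all probe sets and a threshold of 0.05, and only results past it are said to rise or fall. Eyes of one kind were compared by unpaired limma fits. The code was tested on simulated data.

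For the lens sign, the 20 genes with the lowest p were named (1 symbol, above background in at least 1 group at 6 hours), then 16 genes studied in eye growth, the list members with the lowest p, and the 5 genes with the lowest p for the mean response. The genes and the 25 lists were chosen with earlier results of these data known. Alternatives changed the block, the arrays that set the spread, filters, scaling, moderation, array weights and birds.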

Additional observations from a re-analysis of the deposited data

Results flagged for a closer look

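A bird is named here where its gap to the nearest of the other 5 was over 0.625 of the whole range of its set of 6. Of 130 sets of values, 11 (8.46%) had such a bird, and chance gives about 1 in 20 for independent sets. The 130 sets share birds and in part genes, so these rates cannot be compared. In 8 of the 11 it was -15 D bird 3, whose choroid and sclera list mean was 3.95. These values of bird 3 were 1.39 for CYBRD1 (median of the others 0.03), 1.18 for TGFB2 (0.00), 1.67 for NOG (0.64), 0.54 for the mean of the BMP list (-0.03), 0.65 for TGF-beta (0.02), 0.75 for retinoic acid (-0.03), -0.33 for clock and melatonin (-0.07) and -0.33 for cone phototransduction (0.02). In +15 D birds, bird 1 had -0.97 for CYBRD1 (-0.21) and -1.12 for the EF1A 3'/5' ratio (0.07), and bird 6 had 0.13 for PENK (0.00).

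TMEM14C (difference of 0.44 between -15 D and +15 D birds) and LOC420903 (0.27) are listed because every bird of one lens sign lay above 0 and every bird of the other below. Across all probe sets 4 did so (0.0104%), and limma's adjusted p of the difference was 0.985 for both. No count expected by chance was set beside these 4, so they are listed as a description. At 3 days TMEM14C differed by 0.03, and LOC420903 differed by -0.34, against its direction at 6 hours.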

How the results depend on the processing

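The count of probe sets past the threshold for the lens sign was 0 under all 23 alternatives, leaving out each of the 12 birds included. At unadjusted p under 0.05 there were at most 2503, and the lowest adjusted p was 0.317. Without the replicate block the count was 0 for the lens sign and 1 (PDE3A) for the mean response, in place of 181. The mean response gave 276 calls above background, 275 with centred arrays, 323 with an intensity trend and robust variances, and 20 to 310 on leaving out 1 bird (20 without -15 D bird 5, 310 without +15 D bird 2). It gave 5 without -15 D birds 3 and 5 and 5 with the actin ratio as a covariate, both chosen after seeing the data. The causes of these shifts were not tested.

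Of 830 repeats for named genes, 25 changed sign, at ALDH1A2 (difference 0.76 over all birds) and at 6 genes within 0.09 of 0. On leaving out 1 bird TGFB2 ran from -0.20 to 0.038, BMP7 from -0.19 to 0.16, PENK from -0.072 to 0.030, TH from -0.074 to 0.13, ALDH1A2 from -0.039 to 1.46, DUSP4 from -0.0089 to 0.15 and OPN4 from -0.18 to 0.000518. TGFB2 was 0.000728 with centred arrays and 0.0032 with the actin covariate, BMP7 0.0060 with array weights and 0.033 without birds 3 and 5, and OPN4 0.060 without them. With 6 birds a set, the interval's median half-width of 0.25 log2 limits what could be detected.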
